A study of Mus musculus with 15 samples.

Results

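The comparison described here set macrophages lacking Ikaros at 8 h of lipopolysaccharide (LPS) against the same genotype at 3 h, in accessible chromatin read out by DNase-seq. It used 4 of the 15 libraries of the series, 2 for each time, labelled Ikzf KO with replicate numbers 1 and 2. All 4 came from macrophages grown from bone marrow (strain C57BL/6J) and given 10 ng/ml LPS, and their titles give 80 U of DNase. Untreated Ikzf KO libraries (0 h, 2 libraries), wild-type libraries (WT, 2 for each of 0, 3 and 8 h) and littermate control libraries (1 for each time) entered only as descriptions. The littermates and WT replicate 1 also carry 80 U in their titles, and WT replicate 2 carries 100 U. The labels give neither the kind of Ikzf allele, the age of the mice, nor whether bone marrow was pooled. They also do not say whether replicates came from separate mice or cultures, so p-values measure spread between libraries that may be purely technical. The littermates' genotype is given only as littermate control, and macrophage marker genes were not checked here, because no annotation of the build of the lists was used.

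The authors deposited 1 list per library of hotspots, stretches of the genome that DNase I digested readily, each with its highest tag density. Hotspots on chromosomes 1 to 19 were ranked within each list by this density, and each list was shortened to the 112044 hotspots of the shortest. Hotspots sharing at least 1 bp over the 4 lists were merged into 184742 union regions. The 15 lists as deposited form 308505 union regions on the same chromosomes and 324309 in all. Of the 184742 regions, 5745 were listed in both 8 h libraries and absent at 3 h (late-only), and 2475 were listed in both 3 h libraries and absent at 8 h (early-only). A further 68151 were in all 4 lists (shared), and in the other 108371 the libraries of at least one time differed.

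LPS, from the outer membrane of Gram-negative bacteria, activates macrophages through Toll-like receptor 4. NF-kB and other factors that wait in the cell act within the first hours on enhancers and promoters, many of which are already accessible. Later stages depend on proteins made in the first wave, such as interferon and the factors it activates, and on enhancers that open during the response. Ikaros, encoded by Ikzf1, is a zinc finger DNA-binding protein of lymphoid and myeloid cells that works with chromatin remodelling complexes and is known both as a repressor and as an activator. The series title names Ikaros, and its design text lists Ikaros and RelA binding profiles at the same times, so the 8 h against 3 h contrast in KO cells asks how accessible chromatin moved from the early to the later response without the labelled Ikzf gene.

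The 3 h lists held 115966 and 112044 hotspots on chromosomes 1 to 19 before shortening, and the 8 h lists 120507 and 127374. After shortening they covered 99.8 and 93.1 Mb at 3 h and 101.6 and 105.4 Mb at 8 h. Read counts are not part of the lists, so depth is unknown. Densities within a list were whole multiples of 1 step (within 0.05 steps), and the step was 0.280 in 3 h replicate 1, 0.287 in 3 h replicate 2, 0.279 in 8 h replicate 1 and 0.237 in 8 h replicate 2. If every library was scaled to one total, which the sources used here do not state, relative depth was 0.848 and 0.826 at 3 h against 0.850 and 1 at 8 h. The 8 h replicate 2 library stands apart in this measure, so the counts of late-only, early-only and called regions are also given without it.

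At a given rank the density itself was higher at 8 h. The hotspot at rank 1000 had a highest tag density of 63.0 and 64.6 in the 3 h lists and of 78.7 and 78.3 in the 8 h lists. At rank 10000 the densities were 21.8 and 21.2 against 26.8 and 27.0. The times did not overlap at either rank, and the curves came together again further down, with 1.96 and 1.72 at 3 h against 1.95 and 1.90 at 8 h at rank 100000. Densities of lists called separately may not share a scale, so regions are compared below by their rank within each list, where 1 is the strongest. Ranks show order within a library and cannot show a change common to all regions.

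**Figure D1:**
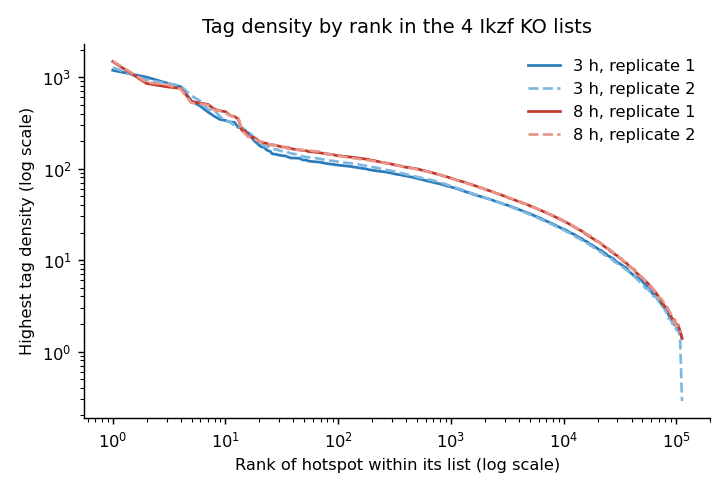
Highest tag density of a hotspot (y axis, log scale, in the authors' units) against its rank within its shortened list (x axis, log scale), 1 line for each of the 4 Ikzf KO lists, blue for 3 h and red for 8 h. Both 8 h lines lie above both 3 h lines at rank 1000 and rank 10000, and the lowest kept density is 0.287 in 3 h replicate 2 against 1.40, 1.40 and 1.66 in the other lists.

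Chromatin sites found at only one of the times stood mostly low in the lists. Presence is read at a cut in rank, so a region near the cut needs little change to be absent. This gathering toward the weak end thus follows in part from the definition. The late-only regions were 3.11% of all union regions and the early-only regions 1.34%. No p-value is attached to these counts, because 2 libraries against 2 cannot go below a two-sided exact permutation p of 0.33. Of the 9839 regions that were in both 8 h lists at a mean rank up to 10000, only 1 was absent from both 3 h lists. Among the 9762 corresponding regions of the 3 h lists, 0 were absent from both 8 h lists. The share of late-only regions was 0.0758% at mean ranks up to 25000, 1.55% up to 50000, 9.85% up to 75000 and 26.7% in the remaining 12313 regions. Early-only regions made up 0.0278%, 1.10%, 4.99% and 16.2% in the same bands. The median late-only region had rank 78180 and 79084 in the 8 h lists and a region length of 603 bp, and the median early-only region had rank 76613 and 74819 in the 3 h lists and a length of 561 bp. Shared regions had a median length of 1130 bp.

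**Figure D2:**
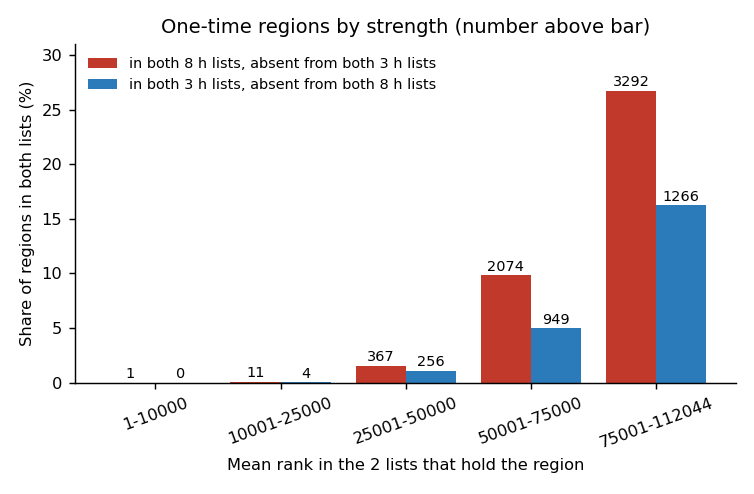
Share of the regions in both lists of a time that were in neither list of the other time (y axis, percent), by mean rank in the 2 lists that hold the region (x axis), red for late-only and blue for early-only regions, with the number of regions above each bar. The share of late-only regions goes from 0.0102% in the strongest band to 26.7% in the weakest.

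The excess of late-only over early-only regions depended on how far down the lists were read. With each list shortened to 0.5 times the length the counts were 2408 and 1932 of 65420 union regions. With 0.1 times the length they were 689 and 683 of 13867. Replicates also matched better at 8 h, where the base pairs shared by both lists were 0.703 of those in either (the Jaccard index), than at 3 h, where the index was 0.654. The part of replicate match, depth and list length in the excess was not tested. Leaving out a library asks less of a region and moved the counts by construction. Late-only regions numbered 10509 without 3 h replicate 1, 8964 without 3 h replicate 2, 25954 without 8 h replicate 1 and 27043 without 8 h replicate 2. Early-only regions numbered 28300, 29696, 3915 and 4735 in the same order. Few regions owed their absence to the shortening. It took 3922 and 0 hotspots from 3 h replicates 1 and 2, and 8463 and 15330 from 8 h replicates 1 and 2. Of the late-only regions, 37 (0.644%) were in a 3 h list as deposited. Of the early-only regions, 128 (5.17%) were in an 8 h list as deposited, 22 of them in both. These 2 shares cannot be set against each other, because the 3 h lists were shortened less.

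Late-only and early-only regions were mostly unlisted before LPS too. Of the late-only regions, 3665 (63.8%, Wilson 95% interval 62.5 to 65.0) were in neither untreated KO list and 863 (15.0%) were in both. Of the early-only regions, 1624 (65.6%, 63.7 to 67.5) were in neither and 380 (15.4%) in both. Over all union regions 53.5% were in neither and 36.3% in both, and among shared regions 7.49% were in neither. The untreated lists held 107045 and 108292 hotspots, slightly fewer than the lists compared. With all 6 KO lists shortened to 107045 the shares in neither untreated list were 63.2% for late-only and 63.6% for early-only regions. The 863 late-only regions in both untreated lists were thus listed at 0 h and at 8 h but not at 3 h, and the 380 early-only regions in both were listed at 0 h and 3 h but not at 8 h.

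The 10 strongest late-only regions are named by position, in build mm9 with coordinates as the lists give them. First in rank was chr11:3005328-3005975, at ranks 6143 and 6646 in 8 h replicates 1 and 2 and with densities of 35.2 and 33.9. Its Z-scores, a further score that the authors give each hotspot, were 4.85 and 4.62, below those of the other 9 regions, which ran from 7.93 to 23.9. Ranks in the littermate and WT series are given as places in the 3 h and 8 h lists of a series after both were shortened to the shorter of them, and regions missing there can be in the longer deposited list. This region was in the littermate list at 8 h at rank 3173 and in the WT replicate 1 list at 8 h at rank 4558. By density it is the strongest late-only region and by Z-score the weakest of the 10.

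A pair of late-only regions lay within 20 kb of each other on chromosome 9. The region chr9:40517163-40518204 had ranks 18364 and 17151 at 8 h, and chr9:40503715-40505496 had ranks 23325 and 20425. The first was in the untreated replicate 2 list at rank 49618 and in the littermate 8 h list at rank 47658, and the second was in no untreated KO list and in no control list. Both thus stood clear of the weak end of the 8 h lists while they were unlisted in both 3 h libraries.

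Of the 10 strongest late-only regions, 8 were in no untreated KO list and 5 in none of the 9 control lists. The 5 include, beside chr9:40503715-40505496, chr3:95516843-95518025 at ranks 17230 and 24059, chr11:115993519-115994481 at 23277 and 21113, and chr15:74813409-74814177 at 21824 and 22958. The last of the 10, chr19:8764754-8765792 at ranks 23718 and 24633, was in none of the control lists either, and chr9:123423852-123424903, at 20517 and 22242, was in 1 of them. A different course was seen at chr7:4456674-4457109. This region had ranks 17856 and 28787 before LPS, was unlisted in both 3 h libraries, and had ranks 17550 and 28982 at 8 h, so the untreated and the 8 h ranks overlapped. It was no longer late-only when hotspots up to 150 bp apart were joined. It was also listed at 8 h but not at 3 h in the littermate (rank 12510) and in WT replicate 2 (rank 8456).

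The strongest early-only region was chr11:117793275-117794152, at ranks 17344 and 16419 in 3 h replicates 1 and 2 with densities of 14.8 and 14.9. Its mean rank of 16881.5 stood behind the 6394.5 of the first late-only region and close to the 17757.5 of the second. The early-only region was in no 8 h list, no untreated KO list and no control list. Next came chr6:38832661-38833313 at ranks 17339 and 25068, which was also in both untreated lists at ranks 50370 and 37118. It was thus listed before LPS and at 3 h and unlisted at 8 h.

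Of the 2475 early-only regions, 180 were on chromosome 11, and 10 regions are too few to show a concentration there. Among the 10 strongest, chromosome 11 held 4. Beside the first, these were chr11:8577969-8578643 at ranks 27860 and 20401, chr11:83383259-83384422 at 26119 and 22767, and chr11:96710694-96711724 at 24950 and 25856. With hotspots up to 150 bp apart joined, chr11:83383259-83384422 was no longer early-only. The last of them, chr11:96710694-96711724, was in both untreated lists at ranks 27722 and 36074, both below its 3 h ranks. Of the 10, 6 were in no untreated KO list and 5 in no control list. At chr7:87921222-87922579 the KO and littermate series went apart: it had ranks 28834 and 26876 in the KO 3 h lists and was in neither KO 8 h list, while the littermate listed it at rank 13255 at 3 h and 9147 at 8 h. Whether the genotypes differ there was not tested.

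Regions that were accessible at both times changed places in the order. Of the 68151 shared regions, 2918 (4.28%) ranked higher at 8 h and 2136 (3.13%) ranked lower, by limma's moderated test on normal scores of the ranks with Benjamini-Hochberg adjusted p under 0.05 over all shared regions. A normal score is the rank turned into a value on a standard normal scale. Both 8 h ranks lay above both 3 h ranks in 16647 shared regions (24.4%) and below them in 17781 (26.1%), and 2917 of the higher and 2136 of the lower calls were among these. The calls rest on a variance that limma lets follow the mean score. With 1 common prior variance limma called 0 regions in each direction, and 5925 and 5759 had an unadjusted p under 0.05, against 7534 and 7131 in the fit with the trend. The counts fell to 997 and 970 without 8 h replicate 1 and to 817 and 747 without 8 h replicate 2. In these fits the spread comes from the 3 h libraries alone, and the lone 8 h library is assumed to vary like them. With regions ranked by mean in place of highest density the counts were 1801 and 1190.

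Among the regions that ranked higher at 8 h, the median mean rank went from 34628 at 3 h to 17605 at 8 h, and the median ratio of the mean ranks was 1.90. The ratio was at least 2 in 1140 of them (39.1%) and at most 8.89. Among those that ranked lower, the median mean rank went from 15495 to 29386.5, the median ratio was 1.85, and 681 (31.9%) had a ratio of at least 2, the largest being 7.40. A change of rank by a factor of 10 was reached by none of the called regions.

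**Figure D3:**
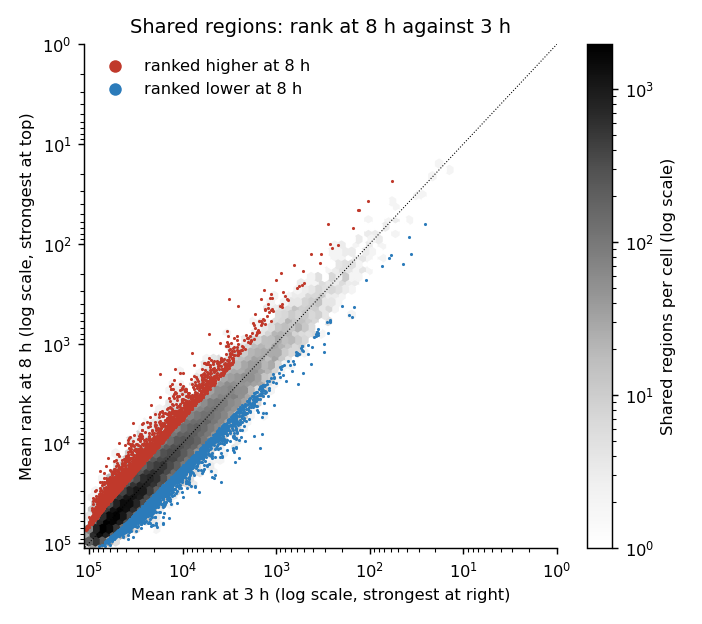
Mean rank of the 68151 shared regions at 8 h (y axis) against 3 h (x axis), both on log scales with the strongest at the top and right, grey cells giving the number of regions, red points the 2918 that ranked higher at 8 h and blue points the 2136 that ranked lower. The dotted line marks equal ranks, and the called regions run along both sides of it from the strongest to the weakest ranks.

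The share of shared regions called was lower toward the weak end of the lists. In the band of shared regions with mean rank up to 10000, 7.02% ranked higher and 5.78% lower at 8 h. The shares were 5.08% and 4.20% up to 25000, 4.61% and 3.05% up to 50000, 2.60% and 1.53% up to 75000, and 0.654% and 0.633% beyond. In the strongest band the median gap between replicates was 769 ranks at 3 h and 616 at 8 h beside a median shift between the times of 1001 ranks. Calls were made in every band, with 31 higher and 30 lower in the weakest.

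Regions that ranked higher also became wider. The shared regions that ranked higher had a median covered length of 1060 and 1002 bp in the 3 h lists and of 1282 and 1305 bp in the 8 h lists. Those that ranked lower had 1379 and 1300 bp at 3 h and 1187 and 1234.5 bp at 8 h. All shared regions had 968 and 918 bp against 973 and 1000 bp. Both 8 h hotspots were wider than both 3 h hotspots in 2178 of the higher regions (74.6%), in 180 of the lower regions (8.43%) and in 32.0% of all shared regions. They were narrower in 49 (1.68%), 926 (43.4%) and 12.6%. Width comes from the same hotspot calls as rank, so it describes these regions further and does not support the calls.

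Before LPS, regions of both kinds were mostly listed already. Of the regions that ranked higher at 8 h, 2282 (78.2%) were in both untreated KO lists and 424 (14.5%, Wilson 95% interval 13.3 to 15.9) were in neither. Of those that ranked lower, 1816 (85.0%) were in both and 192 (8.99%, 7.85 to 10.3) in neither, beside 85.5% and 7.49% of all shared regions. The 2282 had a median rank of 24827 at 0 h, 27385 at 3 h and 13490 at 8 h. The 1816 had 20375 at 0 h, 12915 at 3 h and 24734 at 8 h. All shared regions in both untreated lists stayed level, at 30649, 31123 and 31109. In the median, regions that ranked higher at 8 h stood at 3 h near their untreated rank, and regions that ranked lower stood highest at 3 h. Single regions took differing courses, with places re-ranked over the shared regions in both untreated lists. Among the 2282, the 0 h place lay between the other times in 989, was the weakest in 970 and the strongest in 322. Among the 1816 these numbers were 930, 547 and 339. Over all 58289 shared regions in both untreated lists they were 13039, 20782 and 24452. Called regions were selected for 3 h and 8 h places that lie apart, which leaves more room for a 0 h place between them. The 3 h and 8 h lists here are those that made the calls, so these ranks describe the called regions and were not tested.

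The shared regions with the largest change in normal score stood low in the lists at one of the times. The region chr12:26468757-26469934 had ranks 61874 and 89228 at 3 h and 18166 and 19670 at 8 h, with densities of 4.48, 2.30, 17.3 and 16.4. Both 8 h libraries placed it far above both 3 h libraries, and the untreated libraries placed it at 92245 and 76889. Its score was higher at 8 h by 2.12 (SE 0.278, limma adjusted p = 1.59e-05), and it was in 1 of the 9 control lists as deposited, a littermate list.

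Several of the other regions named for their gain were unlisted before LPS. The region chr2:59603450-59604537 had ranks 95258 and 76153 at 3 h and 32459 and 27066 at 8 h, and chr1:77385242-77386681 had 91100 and 85653 against 37596 and 35137. Neither was in an untreated KO list, as held for 4 of the 10. By contrast, chr16:44502908-44503905 had ranks 32965 and 41998 before LPS, 94744 and 84217 at 3 h, and 33334 and 38029 at 8 h. In that region the untreated and the 8 h ranks overlapped, and both 3 h libraries lay far below. The limma adjusted p of the 10 ran from 1.59e-05 to 0.0266.

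The largest fall in score was at chr12:19719006-19719562, with ranks 57989 and 60078 at 3 h and 108863 and 102031 at 8 h (difference -2.07, limma adjusted p = 0.00226). The 8 h ranks lay near the end of the lists, and the littermate went from rank 3820 at 3 h to 49326 at 8 h. At chr2:152732483-152734025 the ranks were 16333 and 16166 at 3 h against 64767 and 61562 at 8 h. The replicates of each time nearly coincided there, and the region had the smallest limma adjusted p of the 10, 1.81e-06, with a difference of -1.67. Ranks at chr12:112839125-112839919 were 38922 and 37671 against 90581 and 89760, and it was in no untreated list.

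Low ranks at 8 h in both KO libraries were also seen at chr10:97970781-97972006, which went from 16422 and 21204 to 62945 and 75498, and at chr4:63531147-63532421, from 21908 and 10748 to 64283 and 64484. Each of these was in only 1 untreated list, at ranks 69265 and 63979 of replicate 2, so both stood high at 3 h alone. The littermate ranked chr4:63531147-63532421 at 9049 at 3 h and 25602 at 8 h, and both WT series had it at 3 h (ranks 11650 and 10182) and not in the shortened 8 h list. The limma adjusted p of the 10 ran from 1.81e-06 to 0.0403.

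Among strong regions the largest ratios of rank are the easier to see in the lists. These regions, 8 in each direction, were picked after their values were seen. The largest ratio was at chr4:147460164-147462902, a region 2738 bp long. Its ranks were 3553 and 2829 at 3 h against 395 and 323 at 8 h, and its densities 37.8 and 41.3 at 3 h and 103.8 and 109.1 at 8 h. Both 8 h libraries placed it far above both 3 h libraries. Its mean rank was better by a ratio of 8.89, and the score difference was 0.88 (SE 0.082, limma adjusted p = 1.58e-07). Before LPS it stood at 1615 and 1819, above both 3 h ranks. The control series moved the same way, from 2703 to 323 in the littermate, from 4325 to 420 in WT replicate 1 and from 5921 to 337 in WT replicate 2.

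A stepwise course over the 3 times was seen at chr1:173801086-173803163. This region had ranks 51222 and 46174 before LPS, 18604 and 16362 at 3 h against 1970 and 2048 at 8 h. The times did not overlap, and the score difference between 8 h and 3 h was 1.22 (SE 0.099, limma adjusted p = 1.71e-08). Its covered length went from 1098 and 1080 bp to 1535 and 1955 bp. In the shortened control lists it was found only at 8 h, at rank 19365 in the littermate and 18133 in WT replicate 2. A like course was seen at chr2:154399500-154401151, with 33791 and 30227, then 12254 and 12098, then 2228 and 1403.

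Other strong regions dipped at 3 h or stood level before they ranked higher. At chr16:43362452-43365101 the ranks were 4033 and 7297 before LPS, 8371 and 7626 at 3 h against 1331 and 1147 at 8 h. The control series also went up there, from 3779 to 3537 in the littermate, from 7785 to 7305 in WT replicate 1 and from 8125 to 4607 in WT replicate 2. At chr11:79981606-79984056 the ranks were 1983 and 3062, then 2354 and 2733, then 471 and 373, so the untreated and the 3 h libraries overlapped. The region chr10:26516839-26520471 went from 10608 and 10670 at 3 h to 1835 and 2155 at 8 h in KO. The control series changed less there too, from 1770 to 1630 in the littermate, from 3889 to 2968 in WT replicate 1 and from 3734 to 2068 in WT replicate 2. Each control series has 1 library for each time, so small shifts in it cannot be told from spread between libraries. Whether the genotypes differ at these sites was not tested.

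All 8 strong regions picked for ranking lower at 8 h stood at 3 h above their untreated ranks, where listed. The largest ratio, 7.40, was at chr3:51013343-51014827. Its ranks were 1342 and 1668 at 3 h against 10762 and 11512 at 8 h, with densities of 56.0 and 51.7 against 25.4 and 24.4. Both 8 h libraries lay far below both 3 h libraries (score difference -1.03, limma adjusted p = 1.21e-07). The untreated ranks were 5473 and 3107, between the others.

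At chr7:133736938-133740416 the region was in the untreated replicate 1 list at rank 39732 and not in replicate 2, stood at 4084 and 3629 at 3 h, and at 28056 and 21193 at 8 h. Its covered length went from 3413 and 3437 bp at 3 h to 1758 and 2007 bp at 8 h. The 3 control series went down alike, from 2356 to 9751 in the littermate, from 2359 to 12410 in WT replicate 1 and from 1496 to 9373 in WT replicate 2. This region was thus strong at 3 h alone in KO and weaker at 8 h in every series.

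Other regions with a peak at 3 h were chr11:117810116-117811776, with 30781 and 25841 before LPS, 1287 and 1535 at 3 h and 7344 and 8898 at 8 h, and chr7:26565903-26568403, with 22665 and 26097, then 2816 and 2726, then 15929 and 15127. The first lies within 20 kb of the strongest early-only region, chr11:117793275-117794152, named above. At chr1:172826342-172827965 the ranks were 25029 and 22981, then 4189 and 5077, then 24231 and 20549. The 8 h ranks there overlapped the untreated ones. All 3 control series went the other way, from 4803 to 2808 in the littermate, from 9042 to 7332 in WT replicate 1 and from 8122 to 4273 in WT replicate 2, and the difference between the genotypes was not tested.

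**Figure D4:**
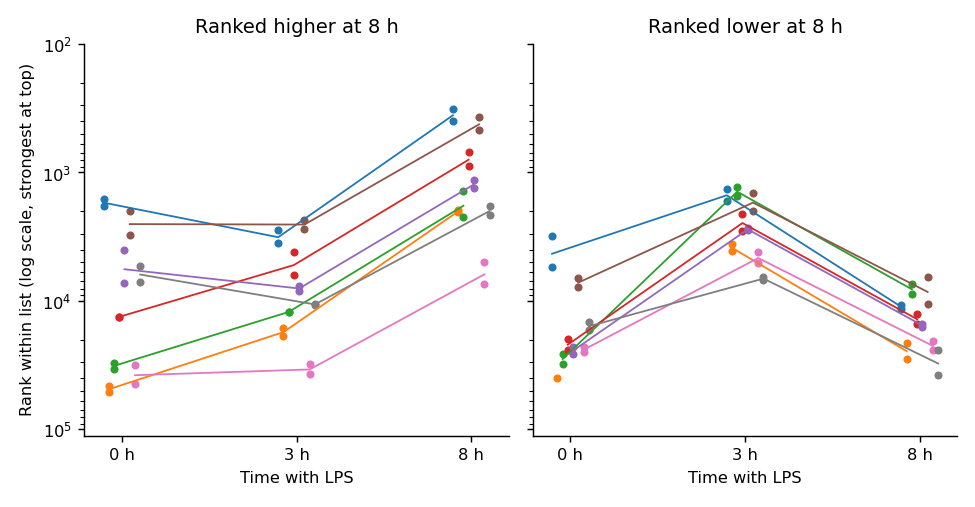
Rank within the list (y axis, log scale, strongest at the top) at 0, 3 and 8 h in the Ikzf KO libraries, for the 8 shared regions with the largest rank ratio in each direction, 1 colour for each region, 1 point for each library and lines through the means. A region missing from an untreated list has no point for it and no line to 0 h; regions on the left reach 323 to 7433 at 8 h, and those on the right reach 1287 to 6892 at 3 h.

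The strongest regions of all kept their places. The 5 shared regions with the best mean rank, led by chr17:39979724-39985944 and chr1:197067392-197068443, held ranks 1 to 6 in the 4 lists. The first had rank 1 in all 6 KO lists, with densities of 1187 and 1276 at 3 h and 1480 and 1502 at 8 h. None of the 5 was called (limma adjusted p from 0.789 to 1), and all 5 were in all 15 lists. On log2 density less the list median in place of rank, chr1:197067392-197068443 and chr16:57391415-57392126 were called lower at 8 h, by -0.40 each (limma adjusted p = 0.0348 for both).

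Neighbours that changed in the same direction were more frequent than over all union regions, though in each pairing below most regions had none within 20 kb. Within 20 kb of a late-only region there was a shared region that ranked higher in 719 cases (12.5%) and one that ranked lower in 293 (5.10%). For early-only regions the order was reversed, with 172 (6.95%) near a higher and 324 (13.1%) near a lower region. Over all union regions the shares were 6.94% and 5.46%. Late-only regions had another late-only region within this distance in 1106 cases (19.3%, beside 12.2% of all union regions), and early-only regions another early-only region in 379 (15.3%, beside 6.05%). Among shared regions, 753 of the higher (25.8%, beside 11.1% of all shared) and 409 of the lower (19.1%, beside 9.06%) had a neighbour called in the same direction. All union regions are a sparser background. Of them 59.1% had a shared region within 20 kb, beside 77.0% of late-only and 71.6% of early-only regions. Over all shared regions, 16.7% had a late-only and 7.76% an early-only region within this distance. These shares are descriptions, and neighbouring regions are not independent.

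The chromosomes differed in the balance of the classes. Shared regions that ranked higher made up 3.38% of the shared regions on chromosome 11 and 5.64% on chromosome 13, the lowest and highest share over the 19 chromosomes. For shared regions that ranked lower the extremes were the same chromosomes in reverse, 2.07% on chromosome 13 and 4.34% on chromosome 11. Late-only regions ran from 2.69% of the union regions on chromosome 3 to 3.93% on chromosome 13, and early-only regions from 1.04% on chromosome 12 to 1.79% on chromosome 11.

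A few windows of 100 kb, picked after their values were seen, show these neighbourhoods. In chr8:129300000-129400000, 9 of 16 shared regions ranked higher at 8 h and 0 lower, and 2 further regions were late-only. The strongest of them, chr8:129371270-129374742, had ranks 105 and 109 before LPS, 62 and 54 at 3 h and 25 and 22 at 8 h. It stood among the strongest regions throughout and still moved up at each time. The late-only region chr8:129365780-129366377 beside it had ranks 26594 and 26116 at 8 h.

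In chr13:56700000-56800000, 6 regions were late-only and 3 of 8 shared regions ranked higher. The shared region chr13:56700010-56705400 had ranks 13249 and 13341 before LPS, 4185 and 6321 at 3 h against 892 and 699 at 8 h. The late-only region chr13:56720998-56724029 had 38005 and 39451 at 8 h. In chr3:68400000-68500000, 6 of 13 shared regions ranked higher and 0 lower, among them chr3:68446285-68447530, with 61713 and 57786 before LPS, 30969 and 37465 at 3 h against 12443 and 12244 at 8 h. These windows thus held several regions that moved up, which need not be separate sites. In the window on chromosome 13, the late-only regions chr13:56724539-56725039 and chr13:56725165-56725946 were less than 150 bp apart. Not every window dense in late-only regions held shared regions that moved up. In chr14:23900000-24000000, 6 of 14 union regions were late-only and 1 was early-only, and the 1 shared region was not called. In chr12:50400000-50500000, 5 of 12 union regions were late-only and 0 were shared.

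Windows that moved down were seen on chromosomes 16 and 11. In chr16:22100000-22200000, 6 of 10 shared regions ranked lower and 0 higher. One of them, chr16:22123651-22125505, had ranks 26961 and 38423 before LPS, 11643 and 16709 at 3 h and 34826 and 33231 at 8 h. In chr11:83400000-83500000, 6 of 10 shared regions ranked lower, while 3 regions were late-only. The region chr11:83471993-83472888 had 39546 and 30029, then 16920 and 11352, then 37518 and 35584. Both regions stood highest at 3 h, and their 8 h ranks were close to the untreated ones. The region chr11:83383259-83384422 named above, early-only unless hotspots up to 150 bp apart are joined, lies within 20 kb of this window.

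Early-only regions were crowded in chr7:95400000-95500000, with 8 of 25 union regions, and in chr5:99600000-99700000, with 7 of 28. The strongest of them by mean rank were chr7:95432185-95433937 at ranks 33352 and 47148 and chr5:99675503-99676766 at 38717 and 59432 in the 3 h lists. Others lay near the floor of the lists, where the lowest Z-scores were 3.54 and 3.58 in 3 h replicates 1 and 2. In the same order, chr7:95438398-95438856 had Z-scores of 3.88 and 4.02, and chr5:99661889-99662223 had 3.89 and 3.99. In neither of these windows was a shared region called in either direction, and the window on chromosome 7 also held 1 late-only region. Another window, chr16:35800000-35900000, likewise held 7 early-only regions, of 31 union regions. There 2 of 9 shared regions ranked lower at 8 h and 0 higher.

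The control series, which shared no library with the KO comparison, were read for the direction of change at the regions called in KO. Each pair of 3 h and 8 h lists was shortened to the length of the shorter, 50187 hotspots for the littermate, 15042 for WT replicate 1 and 19384 for WT replicate 2. Only regions in both lists of a pair could be read. Of the regions that ranked higher at 8 h in KO, 987 of 1329 also ranked higher in the littermate (74.3%), 387 of 552 in WT replicate 1 (70.1%) and 544 of 696 in WT replicate 2 (78.2%). Of those that ranked lower in KO, 413 of 1219 ranked higher in the littermate (33.9%), 275 of 655 in WT replicate 1 (42.0%) and 198 of 782 in WT replicate 2 (25.3%). Over all shared regions the shares were 50.1%, 50.9% and 50.3%. In each series the regions called in KO thus lay on both sides of all shared regions, in the direction of their KO call.

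**Figure D5:**
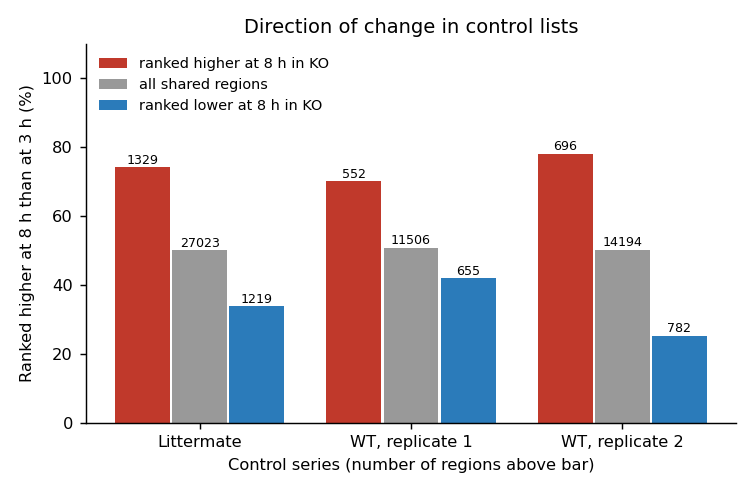
Share of regions that ranked higher at 8 h than at 3 h (y axis, percent) in the littermate series and the 2 WT series (x axis), for regions that ranked higher in KO (red), all shared regions (grey) and regions that ranked lower in KO (blue), with the number of regions read above each bar. The red bars stand at 70.1% to 78.2%, the grey bars at 50.1% to 50.9% and the blue bars at 25.3% to 42.0%.

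Of the called regions, 513 of the higher and 630 of the lower were in all 6 shortened control lists. Among the 513, 275 (53.6%) ranked higher at 8 h in all 3 control series and 26 (5.07%) ranked lower in all 3. Among the 630, 229 (36.3%) ranked lower in all 3 and 56 (8.89%) ranked higher in all 3. Over the 10869 shared regions in all 6 lists the shares were 21.6% higher and 17.5% lower. The readable regions were the stronger ones, since the WT lists are short.

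Presence or absence was read in the same shortened control lists. In the littermate, 623 late-only regions (10.8%) were listed at 8 h alone and 93 (1.62%) at 3 h alone, and 132 early-only regions (5.33%) at 8 h alone and 111 (4.48%) at 3 h alone. Over all union regions the shares were 10.4% and 2.26%, so the late-only regions lay near them. Few regions could be read in the shorter WT lists, where late-only regions were listed more often at 8 h alone and early-only regions more often at 3 h alone. WT replicate 1 had 19 late-only regions at 8 h alone and 2 at 3 h alone, and 6 early-only regions at 8 h alone and 19 at 3 h alone. WT replicate 2 had 36 and 1 late-only regions, and 1 and 23 early-only regions, in the same order. Over all union regions the WT shares at 8 h alone and 3 h alone were 1.54% and 1.17% in replicate 1 and 2.22% and 1.53% in replicate 2. These numbers were not tested.

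The littermate list at 8 h as deposited, 110569 hotspots long, held 2100 late-only regions (36.6%) and 600 early-only regions (24.2%), beside 40.4% of all union regions and 84.9% of shared regions. The WT lists at 8 h, 46530 and 50212 hotspots long, held 412 (7.17%) and 472 (8.22%) of the late-only regions and 105 (4.24%) and 111 (4.48%) of the early-only regions, beside 22.2% and 23.9% of all union regions. The late-only shares were thus below those of all union regions in each of these lists. These lists are shorter than those compared, and most late-only regions stood low in the KO lists, so absence from a control list does not show a difference between the genotypes.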

How the data were processed

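DNase-seq hotspot lists of 4 Ikzf KO libraries (3 h and 8 h of LPS, 2 each) were compared; groups follow the sample titles. The build (mm9) and the use of CASAVA are named per the submitters' processing notes; for the aligner, hotspot caller and threshold, nothing is given in the sources used here. The authors called each library separately. Per the file headers, the deposited highest and mean tag densities are a signal and the Z-score is a score; both were used only within a list. Whether coordinates count from 0 or 1 is not stated.

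Hotspots on chromosomes 1 to 19 were ranked by highest density (ties by mean density, then position), lists shortened to 112044, and hotspots sharing at least 1 bp merged. Shared regions took the best density of their hotspots in each list, were re-ranked, turned into normal scores and tested with limma 3.58.1 (R 4.3.3; empirical Bayes with a trend on the mean score; Benjamini-Hochberg over 68151 regions, threshold 0.05). Printed ranks are places in the shortened list. Wilson 95% intervals cover counting error only. The script was tested on simulated data. Libraries hold no counts, so no depth interval can be given; the number of libraries limits the precision.

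Regions were named by rule: the 10 late-only and 10 early-only regions of best mean rank, the 10 called regions of largest score change in each direction without overlap, and the 5 strongest shared regions. The text prints values for only some of these. Regions of largest rank ratio and windows were added after their values were seen. The comparison, its regions and lists were chosen with earlier results of these data known. Replicate numbers were not used to pair libraries, since nothing in the labels ties them. Alternatives covered list length, ranking measure, overlap, merging, chromosomes X and Y, variance model, 500 bp bins and each library left out. Gene assignment, promoters, gene lists and macrophage markers were not analysed here, because no annotation in mm9 coordinates was used.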

Additional observations from a re-analysis of the deposited data

Results flagged for a closer look

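The shared region chr1:172826342-172827965 went in opposite directions in KO and control libraries: both KO 8 h ranks lay below both KO 3 h ranks (mean rank lower by a ratio of 4.83), and the littermate and both WT series all ranked it higher at 8 h. The difference was not tested.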

How the results depend on the processing

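Of the 4 counts (late-only, early-only, ranked higher, ranked lower), 34 values under an alternative stayed within 1.5 times the main count and 26 did not. Lists of 0.5 times the length gave 2408 late-only regions, and lists of 0.1 times gave 689 late-only, 683 early-only, 445 higher and 370 lower. Ranking by mean density gave 1801 higher and 1190 lower, and limma with 1 common prior variance 0 and 0. Log2 densities with a common prior variance, chosen after seeing the data, gave 859 and 587. In bins of 500 bp, another unit, 17620 were late-only and 7113 early-only. Leaving out each library in turn gave 8964 to 27043 late-only, 3915 to 29696 early-only, 817 to 4325 higher and 747 to 2744 lower, with the lone library of a time assumed to vary like the pair of the other. With the replicate number as a block the counts were 4215 higher and 3369 lower. Nothing in the labels ties same-numbered libraries, and their deviations correlated at 0.0236 across shared regions. Whether they share a mouse or culture cannot be told from this value. On log2 density the score change of chr19:61275018-61276298, among the 5 strongest regions and called in no setting, became -0.28. The causes were not tested, except that fewer libraries or shorter lists change what a class asks. Of the values for named regions, 719 kept their side and direction, 51 lost the call, 3 moved, 1 reversed and 2 gained a call. The 3 were chr7:4456674-4457109, chr11:83383259-83384422 and chr4:144814374-144815180, which left their class when hotspots up to 150 bp apart were joined, and the 2 were chr1:197067392-197068443 and chr16:57391415-57392126 on log2 density. All 16 regions of largest rank ratio lost the call with 1 common prior variance. Depth is unknown, so absence from a list may be a lack of depth.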
